A study of Mus musculus with 3 samples.

Results

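The genes described here encode the part of the extracellular matrix that is not collagen: laminins and nidogens, fibulins, fibrillins and other elastic fibre proteins, adhesive glycoproteins, proteoglycans with their link proteins, and the enzymes that hydroxylate or crosslink matrix proteins. They were chosen by the gene name on the array, with no measured value, and came to 59 genes with 91 probes and 109 spots per array. The whole array held 27670 named genes on 41174 probes. Of the 59 genes, 49 were well enough above background to be tested, among 18043 genes tested in all. On every array each of the 49 stood well above background in the KO and the WT channel, and none was saturated.

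The cells were neural stem cells (NSCs), dividing precursors of neurons and glia, which the submitters grew from mouse embryonic stem cells in serum-free medium with EGF and bFGF, by way of neurospheres that were then plated on poly-L-ornithine and fibronectin. RNA from NSCs of genotype Dnmt3a-/- (here "labelled KO", Cy3 dye) was hybridised with RNA from wildtype NSCs ("labelled WT", Cy5 dye) on 3 arrays, each labelled as a biological replicate. The product of Dnmt3a is a de novo DNA methyltransferase, which acts mostly at CpG dinucleotides. The dyes were never exchanged, so for a single probe dye bias and genotype cannot be told apart. The labels do not say how many cell lines or clones the 3 replicates came from. The p-values therefore measure only the spread between these 3 arrays, with the spread of each gene drawn toward that of all genes.

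All values are log2 ratios with labelled KO over labelled WT, so a positive value is higher in the RNA labelled KO. The gene named in the genotype went against its label: Dnmt3a itself had ratios of 1.07, 0.97 and 0.92, a mean of 0.99 (SD 0.076, n = 3, limma adjusted p = 9.6e-07), and its other probes averaged 0.61 and 0.76. The exons deleted in the knockout are not given in the sources used here, so whether these probes lie in the deleted part is unknown. Every direction below is therefore that of the libraries as labelled. The ratios of the arrays correlated at r = 0.909 to 0.932 across the 18043 genes, which are not independent replicates. All 15 NSC markers on the array, among them Sox2, Nes, Pax6 and Vim, stood well above background in the KO and the WT channel. So did the 4 tested macrophage markers, so this mark alone does not tell cell types apart. Pax6 was dim, with mean log2 levels of 6.62 in the KO and 6.38 in the WT channel. The median SD between arrays was 0.064 for the 49 matrix genes and 0.056 for all genes.

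As background, basement membranes are thin sheets on which laminins, trimers of an alpha, a beta and a gamma chain, form a network that nidogens tie to collagen IV and to the proteoglycan perlecan. Integrins and dystroglycan on the cell surface bind the laminins, and in the germinal zones of the brain NSCs touch laminin-rich structures. Elastic fibres are built on fibrillin microfibrils, to which latent TGF-beta binding proteins (LTBPs) and fibulins attach, and lysyl oxidases join the elastin and collagen chains covalently.

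Of the 49 tested genes, 14 were higher and 17 lower in the RNA labelled KO at a limma adjusted p under 0.05, and 18 did not pass. The background is high: the same threshold called 48.0% of all 18043 genes, 22.5% as higher and 25.5% as lower, against 63.3% of the matrix genes. The median ratio was -0.015 for the matrix genes and -0.011 for all genes, and the median size of the ratio without its sign was 0.20 against 0.099. In all 31 called genes the ratio had the same sign on the 3 arrays. A change of at least 1.5-fold was found for 6 matrix genes, Fbln2, Efemp1, Bgn, Matn2 and Fbn1 lower and Ltbp3 higher, where 4.01% of all genes reached it, 2.05% lower and 1.96% higher. Fbln2 was the only matrix gene past 2-fold, which 1.16% of all genes passed. The 18 genes that did not pass had means between -0.075 and 0.12.

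**Figure D1:**
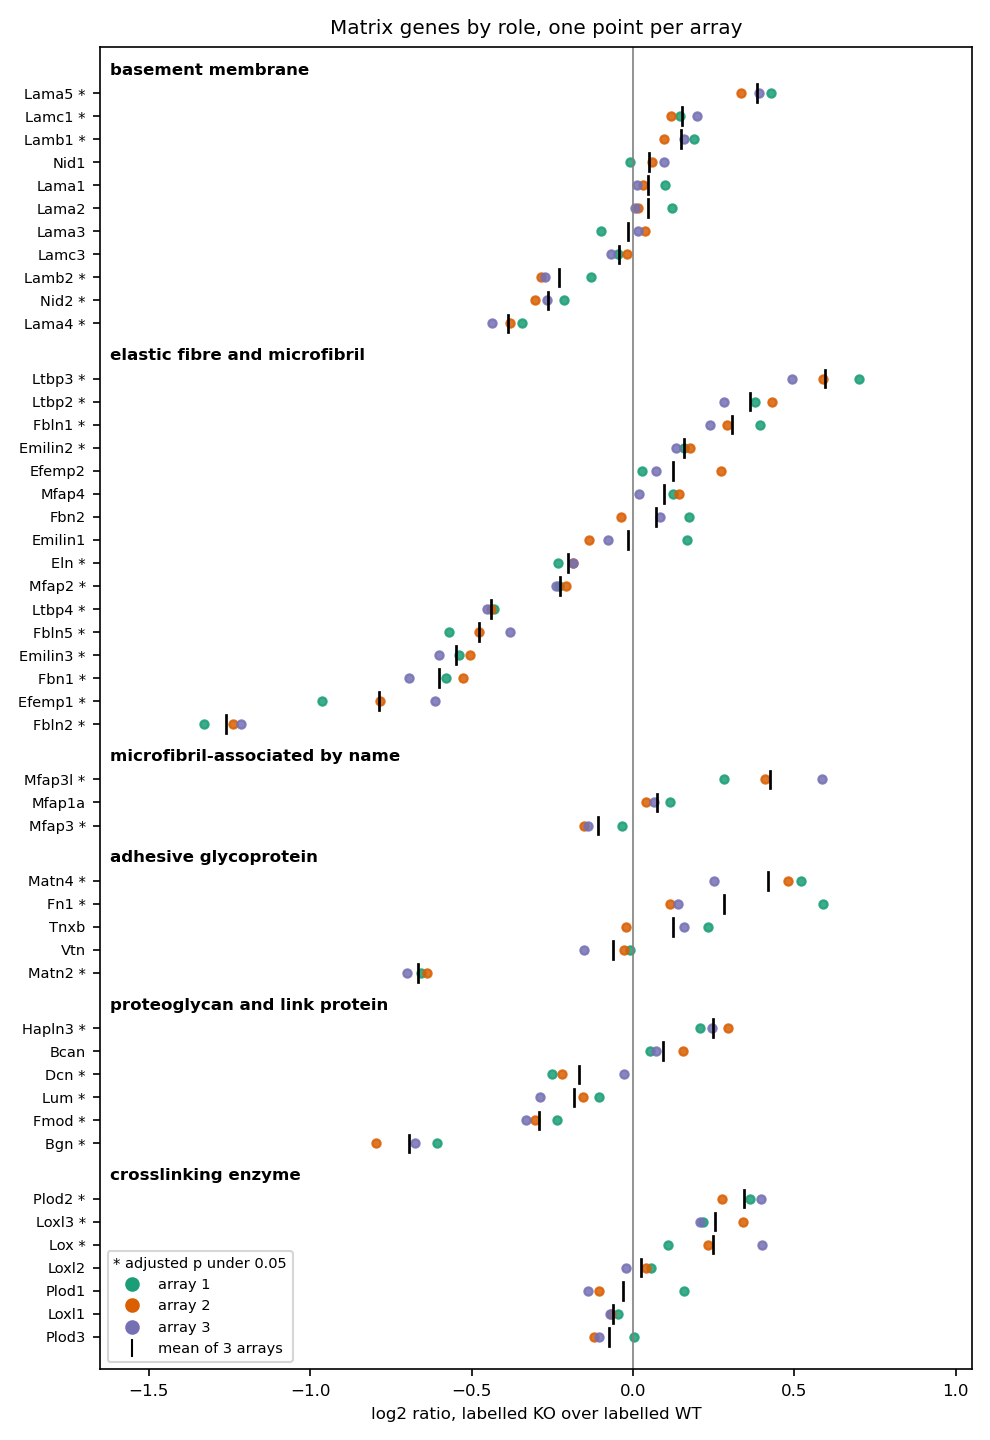
Log2 ratio (labelled KO over labelled WT, x axis) for 48 of the 49 tested matrix genes (rows, grouped by role), with 1 point per array, a bar at the mean of the 3 arrays and an asterisk where the limma adjusted p was under 0.05. The lowest mean is that of Fbln2 at -1.26 and the highest that of Ltbp3 at 0.59.

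The methyltransferase named in the genotype acts on CpG sites, so stretches upstream of called genes at the low and the high end are shown first. RefSeq promoter windows on GRCm38.p6 matched 37 of the 59 genes, with 49 windows. Printed are the 250 bases before the annotated start, on the gene's strand, of the 2 called genes with the lowest and the 2 with the highest mean ratio among those with a single window. Capitals mark every CG. They are Fbln2 at chr6:91212514-91212763 (plus strand), Efemp1 at chr11:28852955-28853204 (plus strand), Lama5 at chr2:180225860-180226109 (minus strand) and Ltbp3 at chr19:5740650-5740899 (plus strand).
Fbln2: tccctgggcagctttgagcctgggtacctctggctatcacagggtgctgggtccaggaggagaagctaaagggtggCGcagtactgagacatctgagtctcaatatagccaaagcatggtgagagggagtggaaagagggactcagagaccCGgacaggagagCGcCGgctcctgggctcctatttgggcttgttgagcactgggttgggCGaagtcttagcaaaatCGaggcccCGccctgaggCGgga
Efemp1: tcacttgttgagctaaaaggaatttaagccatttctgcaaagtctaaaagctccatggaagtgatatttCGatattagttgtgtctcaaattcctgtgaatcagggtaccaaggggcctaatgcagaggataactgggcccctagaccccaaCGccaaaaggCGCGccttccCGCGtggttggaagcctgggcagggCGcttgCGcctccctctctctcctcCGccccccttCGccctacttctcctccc
Lama5: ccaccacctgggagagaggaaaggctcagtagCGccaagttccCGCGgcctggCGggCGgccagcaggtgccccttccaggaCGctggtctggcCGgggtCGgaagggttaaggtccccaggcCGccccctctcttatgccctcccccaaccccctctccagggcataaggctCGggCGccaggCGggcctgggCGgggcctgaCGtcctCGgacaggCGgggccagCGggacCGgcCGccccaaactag
Ltbp3: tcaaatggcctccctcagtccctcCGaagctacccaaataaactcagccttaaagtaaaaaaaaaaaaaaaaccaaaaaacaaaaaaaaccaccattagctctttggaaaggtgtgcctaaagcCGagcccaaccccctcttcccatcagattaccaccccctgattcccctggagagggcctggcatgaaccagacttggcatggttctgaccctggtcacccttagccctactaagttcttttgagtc

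The Fbln2 stretch holds 8 CG and that of Efemp1 10, while Lama5 has 19 and Ltbp3 has 2. Among all 32851 windows in the table, 43.0% held 8 or more CG in the same 250 bases, 37.8% held 10 or more, 19.7% held 19 or more and 81.2% held 2 or more. These 4 genes lay at different CG densities, with the CG-poorest stretch upstream of the gene with the highest ratio. Over the windows of the 9 higher genes that matched, the median was 11 CG, over those of the 10 lower genes 11.5, over those of the 10 that did not pass 15.5, and over all windows 6. These are letter counts in fixed windows, and DNA methylation is not among the values used here.

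Basement membrane genes had 3 higher, 3 lower and 6 not past the threshold of the 12 tested, shares close to the 22.5% and 25.5% of all genes, and a median of 0.016. Among laminin alpha chains, which carry the parts that bind cell receptors, Lama5 and Lama4 went opposite ways. Lama5, the alpha chain of laminin-511 and laminin-521, had ratios of 0.43, 0.33 and 0.39 on the 3 arrays, a mean of 0.38 (SD 0.047, n = 3, adjusted p = 7.2e-05). Its call did not hold with the background model fitted on all spots (0.13, adjusted p = 0.051). Lama4, the alpha chain of endothelial and mesenchymal laminins, had -0.34, -0.38 and -0.44, a mean of -0.39 (SD 0.047, n = 3, adjusted p = 6.8e-05). On each array the ratio of Lama5 was above 0 and that of Lama4 below it. Lama1, Lama2 and Lama3 had means of 0.048, 0.047 and -0.016 and did not pass.

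Among the shared chains, Lamb1 and Lamc1, the beta and gamma chains of most laminin trimers, were slightly higher, with means of 0.15 and 0.15 (adjusted p = 0.0090 and 0.0069). Lamb2, the beta chain of synaptic and glomerular laminins, was lower at -0.13, -0.29 and -0.27, a mean of -0.23 (SD 0.085, n = 3, adjusted p = 0.0023). Lamc3 had a mean of -0.044 and did not pass. It was called lower in the scanner's processed signals (-0.24, adjusted p = 0.019) and in the authors' deposited table (-0.23, adjusted p = 0.019). The calls of Lamb1 and Lamc1 did not hold without replicate 3, where the means were 0.14 and 0.13 (adjusted p = 0.053 and 0.058). Lamb1 also missed the threshold in the scanner's processed signals (0.14, adjusted p = 0.053) and in the authors' deposited table (0.14, adjusted p = 0.078). Of the nidogens, which link laminin to collagen IV, Nid2 was lower at -0.22, -0.30 and -0.27 (mean -0.26, adjusted p = 5.1e-04) and Nid1 had a mean of 0.049. With each array centred on its median in place of loess, Lamb1 (-0.37), Lamc1 (-0.41), Nid1 (-0.57) and Lama2 (-0.38) were called lower, at adjusted p of 0.010, 0.010, 0.0041 and 0.0061, while Lama5 stayed above 0 at 0.13 (adjusted p = 0.19).

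The 4 tested Lama4 probes did not give the same size. The brightest, at chr10:38885787-38885846 (mm7), stood for the gene. Probe A_52_P7554, whose place overlaps it, averaged -0.36. A probe upstream on the same transcript averaged -0.17 with -0.035 on array 1, and the fourth, made to another cDNA, averaged -0.046 and was above 0 on array 2. All 4 means were negative, and the means lay closer to 0 at the probes farther from the brightest one.

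Elastic fibre and microfibril genes held the largest changes, with 8 lower, 4 higher and 4 not past of the 16 tested, and a median of -0.11. Of all genes, 25.5% were lower and 22.5% higher. Of the 5 fibulins in this group, proteins with calcium-binding EGF repeats that sit at microfibrils and basement membranes, 3 were lower and 1 higher. Fbln2, fibulin-2, had ratios of -1.33, -1.24 and -1.22, a mean of -1.26 or 2.40-fold lower (SD 0.060, n = 3, adjusted p = 2.2e-07). Its probe lies at chr6:91354450-91354509 (mm7). Efemp1, fibulin-3, had -0.96, -0.78 and -0.61, a mean of -0.79 or 1.72-fold lower (SD 0.17, n = 3, adjusted p = 3.2e-05). Fbln5, which brings elastin and lysyl oxidase-like enzymes to the microfibril, had -0.57, -0.48 and -0.38, a mean of -0.48 (SD 0.095, n = 3, adjusted p = 6.7e-05). In these 3 genes array 1 was the lowest, and no array came near 0.

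Fbln1, fibulin-1, was the exception, with ratios of 0.39, 0.29 and 0.24, a mean of 0.31 (SD 0.079, n = 3, adjusted p = 4.5e-04). Its other tested probe gave 0.54, 0.44 and 0.40. Under median centring Fbln1 fell to -0.15 (adjusted p = 0.16), above the all-gene median of -0.26 in that setting. Efemp2, fibulin-4, had a mean of 0.12 (adjusted p = 0.074) and was called higher without replicate 1 (0.17, adjusted p = 0.042) and lower under median centring (-0.43, adjusted p = 0.020).

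The fibrillins form the microfibril itself. Fbn1 had ratios of -0.58, -0.53 and -0.69, a mean of -0.60 or 1.52-fold lower (SD 0.084, n = 3, adjusted p = 1.5e-05). Fbn2, the fibrillin of early development, had a mean of 0.072 (adjusted p = 0.21). It was called higher without replicate 2 (0.13, adjusted p = 0.048) and lower under median centring (-0.43, adjusted p = 0.0035). The second Fbn1 probe was also below 0 on every array, but less so, with -0.12, -0.20 and -0.35 and a mean of -0.23. Eln, elastin, had a mean of -0.20 (adjusted p = 0.0015), but -0.041 (adjusted p = 0.091) with the background model fitted on all spots and -0.35 in the scanner's processed signals, and Mfap2, the microfibril glycoprotein MAGP-1, -0.23 (adjusted p = 7.7e-04). The other Mfap2 probe averaged -0.044 and was not below 0 on array 3.

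The LTBPs, most of which hold latent TGF-beta in the matrix, went both ways. Ltbp3 had ratios of 0.70, 0.59 and 0.49, a mean of 0.59 or 1.51-fold higher (SD 0.10, n = 3, adjusted p = 2.6e-05). Ltbp2, which binds fibrillin but not latent TGF-beta, had 0.38, 0.43 and 0.28, a mean of 0.36 (SD 0.075, n = 3, adjusted p = 1.8e-04). Ltbp4 had -0.43, -0.44 and -0.45, a mean of -0.44 (SD 0.010, n = 3, adjusted p = 2.1e-05). The ratios of Ltbp4 were the most alike across arrays of all called matrix genes. The value of Ltbp3 rests on 1 of its probes: the dimmer probe, at chr19:5646569-5646628 on mm7 against chr19:5653092-5653152 for the brighter, gave 0.20, -0.032 and -0.0051. Under median centring Ltbp3 was 0.14 (adjusted p = 0.19), whereas Ltbp2 was 0.43 (adjusted p = 0.0030) and was the only matrix gene called higher there. Ltbp2 in turn was at 0.044 (adjusted p = 0.072) with the background model fitted on all spots and at 1.24 in the scanner's processed signals. Its probe was dim, with log2 levels of 6.52 to 6.64 in the KO and 6.17 to 6.24 in the WT channel.

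EMILINs are glycoproteins at the surface of elastic fibres. Emilin3 had ratios of -0.54, -0.51 and -0.60, a mean of -0.55 (SD 0.049, n = 3, adjusted p = 1.1e-05). Emilin2 was higher at 0.16 (adjusted p = 0.0049), a call that turned under median centring (-0.25, adjusted p = 0.047) and missed the threshold in the authors' deposited table and with the background model fitted on all spots, and Emilin1 had 0.17, -0.14 and -0.076, a mean of -0.015. Emilin3 was a dim probe whose size moved with the background correction, from -0.11 when the background model was fitted on all spots to -1.13 in the scanner's processed signals, and it was called lower in each. Of 3 genes grouped by the microfibril-associated name alone, Mfap3l was higher at 0.28, 0.41 and 0.58 (mean 0.43, SD 0.15, n = 3, adjusted p = 4.9e-04), with its other tested probes at 0.20 and 0.061. Mfap3 was lower at -0.11 (adjusted p = 0.041), a call that held under only 7 of 13 alternative ways of processing. Among others, it was lost without replicate 2 (-0.087) and without replicate 3 (-0.093). It was also lost in the scanner's processed signals (adjusted p = 0.15) and in the authors' deposited table (adjusted p = 0.28). Mfap1a, a spliceosome component despite its name, had a mean of 0.074 (adjusted p = 0.10).

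**Figure D2:**
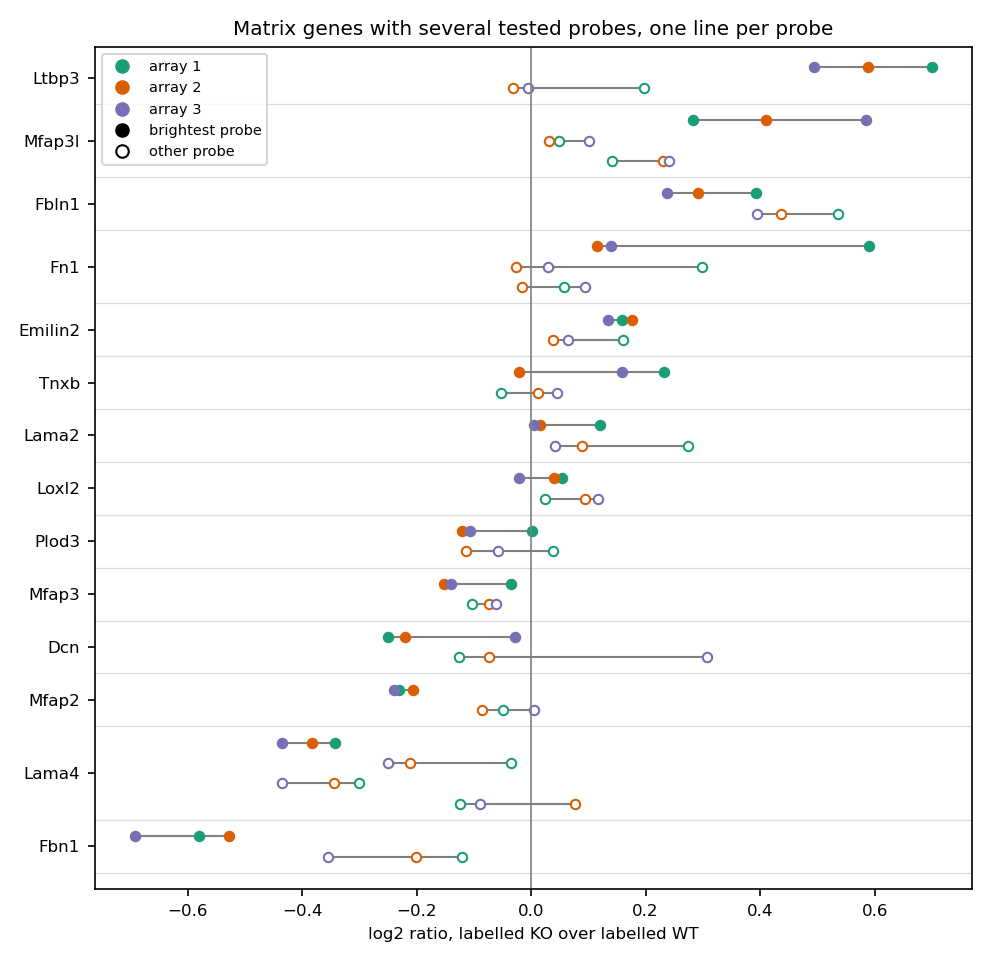
Log2 ratio (labelled KO over labelled WT, x axis) for each tested probe of the 14 matrix genes with several tested probes, 1 row of 3 array points per probe, joined by a line. Filled points are the brightest probe, which stood for the gene, and open points the others. The probes of Fbln1 lie together, and those of Ltbp3 and Fbn1 lie apart.

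Among adhesive glycoproteins, 2 were higher, 1 lower and 2 not past of the 5 tested, where 22.5% of all genes were higher and 25.5% lower. The matrilins, filament-forming adaptors between collagen and proteoglycans, went both ways. Matn2 had ratios of -0.66, -0.64 and -0.70, a mean of -0.67 or 1.59-fold lower (SD 0.032, n = 3, adjusted p = 3.2e-06). Matn4, a matrilin found in brain, had 0.52, 0.48 and 0.25, a mean of 0.42 (SD 0.15, n = 3, adjusted p = 4.8e-04). Matn2 was lower by nearly the same amount on all arrays, while Matn4 was clearly less raised on array 3. Matn4 lost its call under median centring (0.16, adjusted p = 0.12) and when the background model was fitted on all spots (0.14, adjusted p = 0.094). Vtn, vitronectin, and Tnxb, tenascin-X, had means of -0.063 and 0.12 and did not pass. Tnxb passed without replicate 2 (0.20, adjusted p = 0.0030). It was also called higher in the scanner's processed signals (0.62, adjusted p = 0.032) and in the authors' deposited table (0.62, adjusted p = 0.027).

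Fn1, fibronectin, was the matrix gene on which the arrays disagreed most. Its brightest probe is spotted 10 times on each array, so the disagreement could be read spot by spot. The 3 probes, all to the same transcript, are printed because their values differ. The first spans 2238 bases of mm7 (chr1:71832689-71834926) and so crosses at least an intron. The second lies at chr1:71839394-71839453, and the third spans 759 bases (chr1:71869155-71869913). Each is 60 bases long and has at least 1 forward reading frame without a stop codon.
A_51_P100856: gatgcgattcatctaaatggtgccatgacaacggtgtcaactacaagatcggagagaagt
A_52_P11817: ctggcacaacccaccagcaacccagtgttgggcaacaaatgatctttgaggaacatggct
A_52_P299974: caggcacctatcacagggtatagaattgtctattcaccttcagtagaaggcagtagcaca

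On array 1, 9 spots of the first probe gave ratios between 0.49 and 0.69, and 1 spot gave 3.97. That spot lay under its local background and was left out of the value. The 10 spots on array 2 lay between -0.0071 and 0.21, and the 9 on array 3 between 0.016 and 0.27. No spot kept on array 1 overlapped a spot of the other arrays, so the gap between arrays was larger than the spread of spots within them. The mean of the 3 arrays (0.59, 0.12 and 0.14) was 0.28 (SD 0.27, n = 3, adjusted p = 0.027). With the left-out spot kept the mean was 0.39 (adjusted p = 0.050), and without replicate 1 it was 0.13 (adjusted p = 0.028). The second probe gave 0.30, -0.027 and 0.029, again highest on array 1, and the third gave 0.058, -0.016 and 0.094. As the mean over its probes, Fn1 was 0.14 (adjusted p = 0.070), and over all 13 alternatives its adjusted p ran from 8.4e-05 without replicate 2 to 0.22 with the background model fitted on all spots. The low end rests on arrays 1 and 3, at 0.59 and 0.14, and on a variance that limma drew toward that of all genes. It therefore does not measure how well these arrays agreed on Fn1. Lama2, whose probe is also spotted 10 times, showed no such gap: its array means were 0.12, 0.016 and 0.0049.

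**Figure D3:**
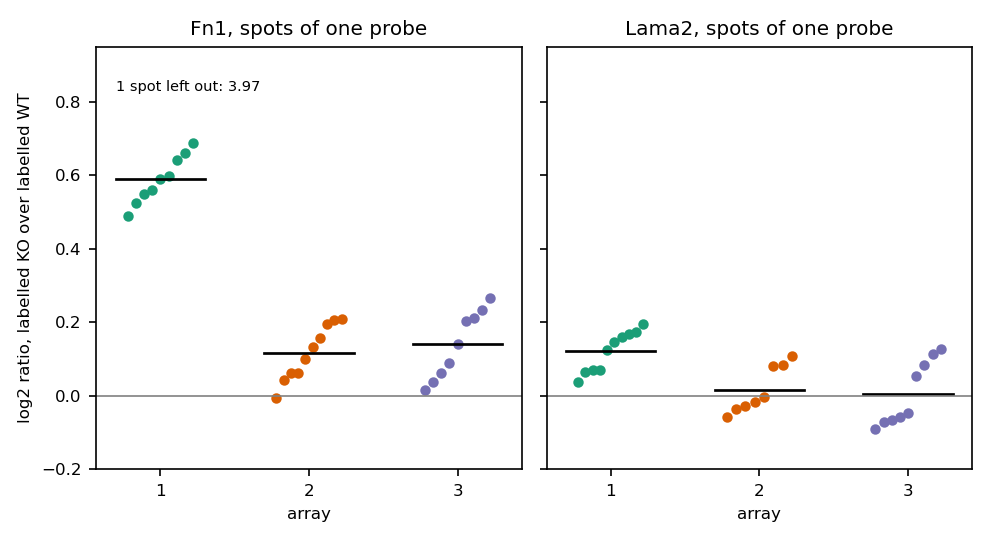
Log2 ratio (labelled KO over labelled WT, y axis) of the single spots of the Fn1 and Lama2 probes that are spotted 10 times, by array (x axis), with a bar at the mean of the spots used. The Fn1 spots of array 1 lie between 0.49 and 0.69, above all Fn1 spots of arrays 2 and 3, and the spot at 3.97 that was left out is given as text.

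Among proteoglycans and link proteins, 4 were lower, 1 higher and 1 not past of the 6 tested, with a median of -0.17. The shares of all genes were 25.5% lower and 22.5% higher. The 4 lower genes were the small leucine-rich proteoglycans of the naming rule, which bind collagen fibrils and growth factors. Bgn, biglycan, had ratios of -0.61, -0.80 and -0.68, a mean of -0.69 or 1.62-fold lower (SD 0.096, n = 3, adjusted p = 9.9e-06). Fmod, fibromodulin, had a mean of -0.29 (adjusted p = 3.2e-04), Lum, lumican, -0.18 (adjusted p = 0.0089) and Dcn, decorin, -0.17 (adjusted p = 0.022). The smaller values were less stable. Lum did not pass without replicate 3 (-0.13, adjusted p = 0.063), in the scanner's processed signals or in the authors' deposited table. Dcn kept its call under only 7 of the 13 alternatives. It did not pass without replicate 1 (-0.12, adjusted p = 0.10) or as the mean over its probes (-0.065, adjusted p = 0.42). The ratios of Dcn were -0.25, -0.22 and -0.028, with array 3 near 0. Its other probe, made to another cDNA, gave -0.13, -0.074 and 0.31. Relatives outside the naming rule, picked after their values had been seen, went both ways. Ogn (-0.45), Prelp (-0.39), Aspn (-0.27) and Kera (-0.24) were lower, and Omd (0.21), Chad (0.15), Optc (0.14) and Podn (0.13) were higher. Those named as higher were dim, with mean log2 levels of 6.34 to 6.93 in the RNA labelled KO. Those named as lower had levels of 8.90 to 14.25 there.

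Hapln3, a link protein that locks proteoglycans onto hyaluronan, had ratios of 0.21, 0.29 and 0.25, a mean of 0.25 (SD 0.044, n = 3, adjusted p = 6.5e-04), and -0.023 under median centring. Bcan, the brain proteoglycan brevican, had a mean of 0.092 (adjusted p = 0.063). The naming rule found no spot called Hspg2, Agrn, Vcan, Ncan or Acan, and 4 of these were on the array under older symbols. They are no part of the counts. Ncan, neurocan, a chondroitin sulfate proteoglycan of the developing brain, had -0.88, -0.91 and -0.81, a mean of -0.87 (SD 0.051, n = 3, adjusted p = 1.1e-06). Vcan, versican, had 0.36, 0.37 and 0.29, a mean of 0.34 (adjusted p = 1.2e-04), with its other 2 probes above background at 0.098 and 0.10, and its sign turned under median centring (-0.012). Acan, aggrecan, was at 0.16 (adjusted p = 0.012) and Agrn, agrin, at -0.099 (adjusted p = 0.057). Fbln7, a fibulin listed under a clone name, was at -0.075 (adjusted p = 0.085).

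Of the 7 tested crosslinking enzymes, limma called 3 higher and 0 lower, against 22.5% and 25.5% of all genes. At an unadjusted p under 0.05, 0 of the 7 were lower. Plod2, the lysyl hydroxylase that acts on collagen telopeptides, had ratios of 0.36, 0.27 and 0.40, a mean of 0.34 (SD 0.063, n = 3, adjusted p = 1.7e-04). Lox, lysyl oxidase, had 0.11, 0.23 and 0.40, a mean of 0.25 (SD 0.15, n = 3, adjusted p = 0.0066), and Loxl3 had 0.22, 0.34 and 0.21, a mean of 0.25 (SD 0.074, n = 3, adjusted p = 0.0011). Lox was the least even of these, lowest on array 1 and highest on array 3. Loxl1, Loxl2, Plod1 and Plod3 had means between -0.075 and 0.025. Loxl1 was called lower with the background model fitted on all spots (-0.085, adjusted p = 0.023). Plod1 and Plod3 were called lower without replicate 1 (-0.12 and -0.11, adjusted p = 0.033 and 0.041). Under median centring Lox, Plod2 and Loxl3 were at -0.018, -0.064 and 0.14, all above the all-gene median of -0.26 in that setting. Loxl1, Loxl2, Plod1 and Plod3 were all called lower there, with Plod1 at -0.27, near that median. The sign of this group against 0 thus depended on the centring, while the 3 enzymes called higher after loess stayed above the median of all genes.

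**Figure D4:**
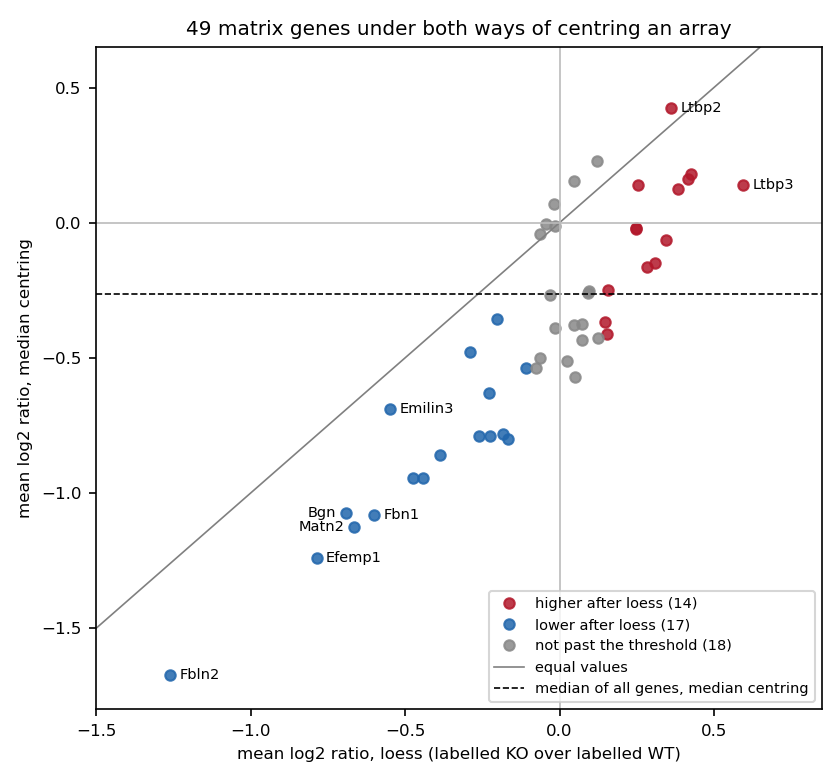
Mean log2 ratio (labelled KO over labelled WT) of the 49 tested matrix genes after loess (x axis) and with each array centred on its median (y axis), 1 point per gene, with the line of equal values and a dashed line at -0.26, the median of all genes under median centring. All 17 genes called lower after loess lie below the dashed line, and 12 of the 14 called higher lie above it.

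The centring of the arrays decided how many matrix genes counted as higher. Under median centring the median of all 18043 genes moved from -0.011 to -0.26, and 1 matrix gene was called higher and 32 lower, against 4.22% and 53.0% of all genes, 57.2% together. Of the 14 higher genes, 6 kept a positive mean and 12 stayed above the all-gene median. The 17 lower genes stayed below it. With the background model fitted on all spots, 8 matrix genes were called higher and 15 lower, against 12.9% and 17.4% of all genes, 30.3% together. Emilin2, Fn1, Lama5, Lox, Ltbp2, Matn4, Dcn, Eln and Mfap3 lost their calls there, and Fmod (-0.065), Loxl3 (0.046), Hapln3 (0.081) and Mfap3l (0.12) kept theirs at much smaller values.

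The 10 genes that were not tested were Hapln1, Hapln2, Hapln4, Lamb3, Loxl4, Matn1, Matn3, Mfap5, Ntn4 and Tnr. Hapln1, Hapln2, Lamb3, Matn1, Matn3, Ntn4 and Tnr were not well above background in either channel on any array. Hapln4 reached it on 1 array in the channel labelled KO and on 2 in that labelled WT, Mfap5 on 1 in the channel labelled WT, and 1 of the 2 Loxl4 probes on 2 there.

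The receptors for these proteins and the enzymes that make their sugar chains were read from lists that hold none of the 59 genes. The counts of these and of all later lists stand against 22.5% of all genes called higher and 25.5% called lower. Of 22 tested matrix receptors and dystroglycan partners, among them receptors of laminin, fibronectin, vitronectin and collagen, 10 were higher, 4 lower and 8 not past, with a median of 0.073. The highest were Itga8 (0.64), the nephronectin- and fibronectin-binding integrin alpha chain, Itgav (0.35), the alpha chain of vitronectin receptors, and the collagen receptor Ddr2 (0.30). The lowest were Itgb3 (-0.43), which pairs with Itgav, Sgcb (-0.43), a sarcoglycan of the dystroglycan complex, and Itga5 (-0.22), the fibronectin receptor chain. Of 15 enzymes that glycosylate dystroglycan so that it can bind laminin, 6 were higher and 4 lower, with B3galnt2 at 0.45 and Pomk at 0.33 among the higher. Under median centring Itgav, Ddr2 and Pomk were below 0, and Itga8 and B3galnt2 stayed above it.

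Of 37 tested genes of heparan and chondroitin sulfate chain synthesis, 9 were higher, 12 lower and 16 not past, with a median of -0.033. Among all genes 22.5% were higher and 25.5% lower. The sulfatases Sulf1 and Sulf2, which take 6-O-sulfate off heparan sulfate outside the cell, were higher at 0.97 and 0.78 (adjusted p = 4.7e-07 and 1.3e-06), and stayed above 0 under median centring at 0.51 and 0.26. Hs6st1, which adds 6-O-sulfate, was lower at -0.94, -0.88 and -0.97, a mean of -0.93 (SD 0.047, n = 3, adjusted p = 7.2e-07). Its relatives Hs6st2 (0.046) and Hs6st3 (-0.023) did not pass. Glce, the glucuronic acid epimerase, was at -0.74 and Chsy1, a chondroitin synthase, at -0.69. Of 27 other tested proteoglycan genes, 10 were higher and 10 lower, with Sdc4, a syndecan, at 0.79 and Spock2 at 0.60, and with Cspg4, the NG2 proteoglycan, at -1.26 and Spock3 at -0.76. Of 21 tested collagen folding and processing genes, 4 were higher and 6 lower. Pcolce2, an enhancer of procollagen cleavage, was the lowest at -1.46, -1.45 and -1.49, a mean of -1.47 (SD 0.019, n = 3, adjusted p = 7.4e-08), and P4ha2, a prolyl hydroxylase, the highest at 0.41.

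Markers of other cells that make such matrix moved in the same comparison, in which 22.5% of all genes were called higher and 25.5% lower. Of 12 tested fibroblast and meningeal markers, 6 were lower and 3 higher, with a median of -0.20. Col1a2 was at -1.48 and Col1a1 at -0.97, while the transcription factors Foxc1, Prrx1 and Twist1 were higher at 0.34, 0.28 and 0.27 after loess and below 0 under median centring. Of the 12, the KO channel had 11 well above background and the WT channel all 12. The summed normalized level of the list was 104750 to 107352 in the RNA labelled KO and 145841 to 167600 in that labelled WT. Without Col1a1 and Col1a2 the sum over the other 10 was 65699 to 70445 against 66399 to 74041. These ranges overlapped, so the 2 collagens carried most of the gap in the sum. Such a sum follows its brightest probes, here Col3a1 (mean 0.025), and says little about dimmer markers. Pdgfra (-0.59) and Pdgfrb (-0.36) were among the markers called lower. Dpt, of the same list, was not well above background. Of 8 tested smooth muscle and pericyte markers 3 were higher and 3 lower, with Kcnj8 at 0.60, Des at -1.19 and Cspg4, which the proteoglycan list also holds, and summed levels of 10190 to 11894 against 9601 to 10655. Of 6 tested endothelial markers 2 were higher, Flt1 at 1.12 and Emcn at 0.21 (-0.31 under median centring), with summed levels of 9943 to 10273 against 7216 to 7583, and Pecam1, Cdh5 and Tie1 were not well above background. Of 15 NSC markers 9 were lower and 2 higher, with Sox9 at -1.19, Egfr at -0.66, Sox2 at -0.36 and Pax6 at 0.24, and summed levels of 59658 to 61024 against 71293 to 74416. Endoderm markers (2 higher and 2 lower of 7 tested), pluripotency markers (1 and 1 of 5) and macrophage markers (1 and 1 of 4) had low summed levels, at most 1208 in the RNA labelled KO, and Afp, Ttr, Pou5f1, Nanog, Zfp42, Aif1, Itgam and Ptprc were not well above background. In bulk RNA, fewer cells of a type and less RNA per cell cannot be told apart, and the part of any such cells in the lower Fbln2, Fbn1, Bgn, Lum and Dcn was not tested.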

How the data were processed

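The authors deposited scanner files, made per the file headers with Agilent Feature Extraction 9.5.3.1, that give raw intensity values per spot and channel with probe positions on mm7. Per the file headers, the log10 ratio of red over green was made by the scanner software from its processed signals; it served only as a check of direction. A value table that the authors deposited was taken for log2 of labelled KO over labelled WT, since its columns correlated with the scanner's opposite ratio at r = -0.998, -0.997 and -0.993; its column medians were 0.0276 and no source used here states its centring. The marks of spots as above background, saturated or outlying are also deposited, as scores of 0 or 1 per the file headers.

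Intensities were corrected with limma 3.58.1 (R 4.3.3) by normexp with an offset of 50, which draws dim ratios toward 0, fitted on spots without outlier marks, and normalized by loess within arrays. Spots with an outlier mark, and background-marked spots lying under their local background (59, 29 and 66 on the 3 arrays), were left out, the latter after the Fn1 spot had been seen. Probes well above background in 1 channel on all 3 arrays were kept, and the brightest stood for its gene. Means over 3 arrays were tested against 0 with lmFit and eBayes (2 residual degrees of freedom, two-sided, adjusted over all 18043 genes by Benjamini-Hochberg). The eBayes step draws the variance of each gene toward a value shared by all genes. That shared value weighs more when a replicate is left out, so p-values from 2 arrays say little about the spread of a single gene. The script was tested on simulated data. The number of arrays limits the precision. Levels come from Aquantile normalization. Of 41174 probes, 22951 were named by accession and 9768 by symbol through RefSeq, and 8455 kept the name in the files. Array values are given for called matrix genes with a mean ratio of at least 0.3 in size or whose probes disagree, and for some others. Of each other list up to 3 genes each way are named, with some further genes that bear on a sentence. A few genes that these rules would name are counted but not reported here. The members and lists were chosen with earlier results of these data known.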

Additional observations from a re-analysis of the deposited data

How the results depend on the processing

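Each result was recomputed under 13 alternatives, of which 2, on which outlying spots are left out, were added after the data had been seen. Of the 31 calls, 12 held under all 13 (Bgn, Efemp1, Emilin3, Fbln2, Fbln5, Fbn1, Fmod, Lama4, Lamb2, Ltbp4, Matn2 and Nid2), and 18 held under all but median centring.

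With the background model fitted on all spots, 8 matrix genes were higher, as were 2324 of all genes. With median centring in place of loess, 1 matrix gene was higher and 32 lower, and 761 of all genes were higher and 9567 lower. Leaving out 1 replicate gave 12 to 16 matrix genes higher and 15 to 18 lower, and 3114 to 3861 of all genes higher and 3470 to 4103 lower. Under median centring the sign turned for Bcan (-0.26), Efemp2 (-0.43), Emilin2 (-0.25), Fbln1 (-0.15), Fbn2 (-0.43), Fn1 (-0.17), Hapln3 (-0.023), Lama2 (-0.38), Lamb1 (-0.37), Lamc1 (-0.41), Lox (-0.018), Loxl2 (-0.51), Mfap1a (-0.38), Mfap4 (-0.25), Nid1 (-0.57) and Plod2 (-0.064). With every spot that carries any outlier mark left out, 45 matrix genes could be tested, and Dcn was at 0.036 because its other probe then stood for it. The cause of the other changes was not tested. The pairing was part of the test, since each array sets the KO and WT RNA of 1 replicate number against each other. The ratios, tested against 0, leave 1 group, so no further pairing was possible.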

Other observations

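Genes that handle hyaluronan, the sugar chain to which link proteins and the large brain proteoglycans attach, were not among the 59 genes. Of 12 tested, 4 were higher, 3 lower and 5 not past, where 22.5% of all genes were higher and 25.5% lower. Has2, a hyaluronan synthase, had ratios of -0.66, -0.65 and -0.71, a mean of -0.67 (SD 0.032, n = 3, limma adjusted p = 3.0e-06). Itih5, whose product binds hyaluronan covalently, had -1.26, -1.37 and -1.38, a mean of -1.33, and Tnfaip6, which transfers such heavy chains, was at -0.49. The receptor Cd44 was at 0.37 after loess and at -0.058 under median centring.

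Of 13 tested genes of TGF-beta signalling and elastic fibres outside the naming rule, 4 were higher and 4 lower. The ligands went both ways, with Tgfb2 at -0.45 and Tgfb3 at 0.27, and so did the receptors, with Tgfbr1 at -0.42 and Tgfbr2 at 0.31. Tgfb3 and Tgfbr2 were below 0 under median centring, at -0.13 and -0.20. Of 7 tested netrins and netrin receptors, relatives of the laminin short arms and their partners, 2 were higher and 3 lower. Ntn3 was at 0.58, 0.67 and 0.59, a mean of 0.61 (SD 0.052, n = 3, adjusted p = 6.8e-06), and the receptors Unc5b and Neo1 were at -0.38 and -0.30.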
